A study of Mus musculus with 8 samples.

Results

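The common gamma chain receptors are a family of cytokine receptors that share the chain encoded by Il2rg. Their 8 genes, Il2ra, Il2rb, Il2rg, Il4ra, Il7r, Il9r, Il15ra and Il21r, were taken by name from a deposited table of counts per gene, and each name matched 1 of its 54532 rows. All 8 passed a filter on low counts that kept 14428 genes. The counts came from RNA sequencing of CD4 T cells from mouse spleen, cultured for 2 days under conditions for pathogenic Th17 differentiation, the route to interleukin-17 producing helper cells linked to autoimmunity. Of 8 libraries, 4 carried the genotype WT and 4 the genotype CYP1B1 knockout, which the design text writes as Cyp1b1-/-. Every library had the same tissue, cell type, culture and day. The labels give no strain, sex or age and do not say how the Cyp1b1 allele was made or in which cells; separate animals or cultures are not named for the replicates. The p-values below therefore rest on differences among these libraries, and that spread may be technical only.

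Each receptor of the family joins the shared chain to a private chain that binds the cytokine. IL-4, IL-7, IL-9 and IL-21 each use 1 private chain, IL-2 and IL-15 share the beta chain Il2rb, and Il2ra and Il15ra add high affinity for IL-2 and IL-15. The private chains carry the kinase JAK1 and the shared chain carries JAK3, and the signal passes to STAT proteins, chiefly STAT5 for IL-2, IL-7, IL-9 and IL-15, STAT6 for IL-4 and STAT3 for IL-21. In T cells IL-7 sustains resting cells, IL-2 drives growth after activation and restrains Th17 differentiation, and IL-21 supports Th17 cells. Some chains also work outside the family: Il4ra pairs with Il13ra1 for IL-4 and IL-13, and Il7r pairs with Crlf2 for TSLP.

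The genes lie at 6 places in the genome, since 2 pairs are direct neighbours. On chromosome 2, Il2ra (ENSMUSG00000026770) spans 11642807 to 11693193, and Il15ra (ENSMUSG00000023206) follows 12.1 kb downstream at 11705290 to 11734317, with no annotated gene between them and both on the plus strand. On chromosome 7, Il4ra (ENSMUSG00000030748) spans 125552120 to 125579474 and Il21r (ENSMUSG00000030745) 125603429 to 125633570, 23.95 kb apart, also with no gene between and on the plus strand. Il7r (ENSMUSG00000003882, 9505788 to 9530176) and Il2rb (ENSMUSG00000068227, 78479256 to 78495271) are on the minus strand of chromosome 15. The others on the minus strand are Il9r (ENSMUSG00000020279) on chromosome 11 at 32187541 to 32200279 and Il2rg (ENSMUSG00000031304) on chromosome X at 101264378 to 101268255. Positions are those of the deposited table, read as GRCm38. In that table Il2ra overlaps Gm37881 on its own strand, which held 5797 counts over the 8 libraries against 292979 for Il2ra. Il4ra overlaps an antisense gene, Gm44876, with 150 counts against 127529, and Il2rg overlaps Gm20489 with 5 counts against 31534. Reads of such overlaps could not be told apart.

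The promoters of Il4ra, Il7r and Il15ra are shown because these genes gave the most clearly separated rise and falls of the family. They are the 250 bases before the RefSeq transcript start (GRCm38.p6), from 5′ to 3′ on the gene's strand, in lower case with motif matches in capitals. The motifs searched on both strands were the STAT motif TTCNNNGAA, the FOXO motif TGTTTAC, the AP-1 motif TGANTCA, the ETS motif CCGGAAG, the aryl hydrocarbon receptor core GCGTG and the amino acid response motif TGATGNAA.
Il4ra, chr7:125552021-125552270, plus strand: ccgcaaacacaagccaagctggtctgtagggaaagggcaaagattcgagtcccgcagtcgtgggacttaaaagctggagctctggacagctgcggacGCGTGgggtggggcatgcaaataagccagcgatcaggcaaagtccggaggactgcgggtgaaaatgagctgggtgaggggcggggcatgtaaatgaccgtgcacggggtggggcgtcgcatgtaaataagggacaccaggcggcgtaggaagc
Il7r, chr15:9529877-9530126, minus strand: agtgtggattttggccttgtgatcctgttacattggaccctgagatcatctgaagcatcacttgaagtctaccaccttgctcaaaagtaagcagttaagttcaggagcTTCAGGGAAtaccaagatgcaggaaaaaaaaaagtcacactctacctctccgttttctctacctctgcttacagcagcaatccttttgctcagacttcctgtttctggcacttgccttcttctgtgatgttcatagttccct
Il15ra, chr2:11705043-11705292, plus strand: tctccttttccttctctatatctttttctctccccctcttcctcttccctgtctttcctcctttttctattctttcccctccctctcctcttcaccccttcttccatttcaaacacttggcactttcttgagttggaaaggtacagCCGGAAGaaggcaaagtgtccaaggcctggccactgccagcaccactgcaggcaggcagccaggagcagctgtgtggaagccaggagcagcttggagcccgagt

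The Il4ra window held 1 GCGTG, the Il7r window 1 STAT motif (TTCAGGGAA, bases -142 to -134 from the start) and the Il15ra window 1 CCGGAAG (bases -104 to -98). Windows were at hand for 7 of the 8 genes, 8 windows in all, with none for Il2rb. Over the 7 genes, GCGTG was in 3 (Il2rg, Il4ra and Il9r), CCGGAAG in 2 (Il15ra and Il2rg), the STAT motif in 1 (Il7r), TGTTTAC in 1 (Il21r), TGANTCA in 1 (a second window of Il15ra) and TGATGNAA in none. No matches overlapped each other. Of 32851 promoter windows of this length, 28.2% held GCGTG, 7.02% the STAT motif, 6.91% CCGGAAG, 6.75% TGANTCA, 3.45% TGATGNAA and 3.17% TGTTTAC. The RefSeq start lies inside the deposited gene for all 3 genes shown: the whole Il7r window is within the deposited span, as are the end of the Il4ra window, the last bases of the Il15ra window shown and the whole second window of Il15ra. A match describes letters in the window and not a bound site.

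Library totals ran from 8918342 to 15667313 counts. Cyp1b1 went against the labels: it stood between 3.75 and 4.74 CPM (counts scaled to one common library size) under the wild type label and between 134.1 and 231.1 CPM under the knockout label, higher by 5.39 on the log2 scale (SE 0.24, edgeR adjusted p = 9.91e-07). Which part of the gene those reads cover is not visible in a gene count, and exchanged labels and a transcript kept in the knockout cannot be told apart. With exchanged labels every direction below would reverse. All directions are those of the labels, and wild type and knockout are short for the libraries labelled so. For scale in the marker counts that follow, 15.7% of all tested genes were called higher under the knockout label and 14.6% lower (edgeR adjusted p under 0.05). Summed CD4 T cell markers ran from 3366.2 to 3526.8 CPM under the wild type label and from 3571.6 to 3717.6 CPM under the other, with 5 of 10 higher and none lower. None of 3 tested CD8 T cell markers was called. Cd4 stood at 693.3 and 624.1 CPM and Cd8a at 2.74 and 3.91 CPM on average under the 2 labels. Summed B cell markers went from 228.4 to 330.0 CPM with wild type and from 132.2 to 156.4 CPM with knockout labels, and 12 of 12 markers fell. Summed NK cell markers stood between 8.97 and 12.8 CPM against 5.501 and 6.89 CPM, with 2 of 6 lower and 3 of 6 tested. Of 9 dendritic cell markers, 5 were tested, 3 fell, 1 rose, and Clec9a and Cd209a had no counts in any library (sums 166.3 to 186.3 against 136.2 to 155.7 CPM). Of 9 markers of monocytes, macrophages or neutrophils, 1 was tested and rose, Ly6g, and S100a9 had no counts in any library (sums 12.3 to 17.2 against 22.5 to 38.8 CPM). Of 6 regulatory T cell markers 2 fell, Ctla4 and Ikzf2, and Foxp3 did not pass (sums 1077.6 to 1126.9 against 870.2 to 900.5 CPM). What part these other cells have in the results below was not tested, and in bulk RNA fewer cells of a type and less RNA per cell cannot be told apart.

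Of the 8 receptor genes, 7 changed between the labels and the shared chain did not pass. Il4ra, Il9r, Il21r, Il2ra and Il2rb rose in the libraries labelled knockout, and Il7r and Il15ra fell. Thus 5 rose where 15.7% of all tested genes did, 2 fell where 14.6% did, and 7 of 8 were called where 30.4% were (edgeR quasi-likelihood test, Benjamini-Hochberg adjusted over 14428 genes, called under 0.05). The 4 libraries of one label lay apart from the 4 of the other in 7 of 8 members, against 29.2% of tested genes. The members were chosen with earlier results of these data known, so these contrasts are a description and not a test of the family. The members' median log2 fold change was 0.21, beside -0.00099 for all tested genes. Scaling by library totals in place of TMM (edgeR's trimmed mean scaling) turned the split of all calls from 2272 higher and 2108 lower to 1745 and 2689, and gave the same 5 and 2 members. Called changes ran from 1.15-fold for Il2rb to 1.77-fold for Il4ra.

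**Figure D1:**
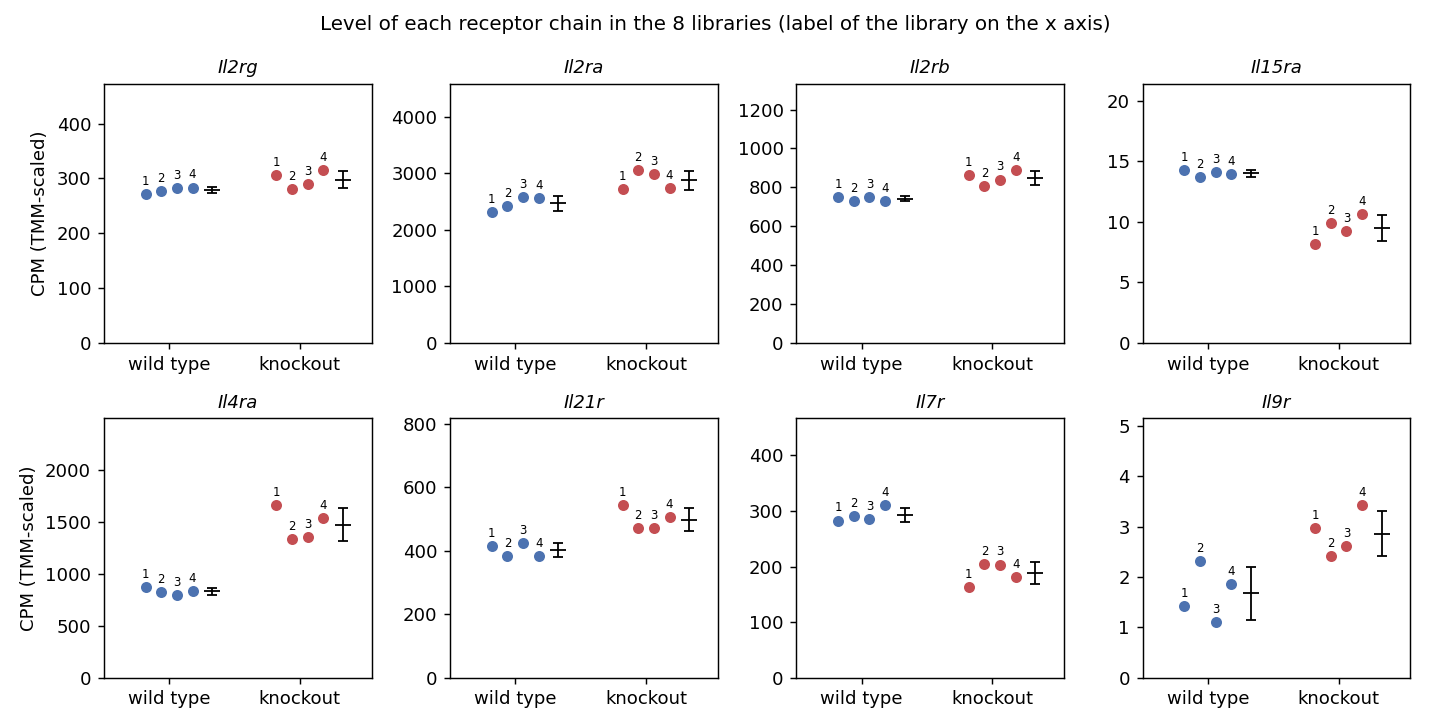
TMM-scaled CPM of each of the 8 receptor genes (y axis, from 0, a scale for each gene) in the 4 libraries labelled wild type and the 4 labelled knockout (x axis). Points are libraries with their replicate number, and the bar beside them is the mean with SD. Labels overlap for Il2rg and are apart for the other 7 genes.

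The shared chain differed least. Il2rg had 272.4, 277.3, 282.1 and 283.4 CPM in libraries 1 to 4 labelled wild type and 306.2, 281.3, 289.2 and 315.2 CPM in libraries 1 to 4 labelled knockout. The labels overlapped: knockout 2 lay within the wild type range and the other 3 above it. The log2 fold change was 0.096 (SE 0.060, edgeR adjusted p = 0.238). With knockout 1 and 4 as the only knockout libraries it passed, at 0.17 (edgeR adjusted p = 0.0324). These had the highest Il2rg of the knockout libraries, so the choice itself favours a pass and no conclusion is drawn from it.

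Il2ra, the alpha chain that makes the IL-2 receptor sensitive to low IL-2, was the most abundant member and rose slightly. It had 2309.6, 2421.9, 2586.7 and 2565.6 CPM in wild type libraries 1 to 4 and 2730.8, 3058.8, 2993.8 and 2745.0 CPM in knockout libraries 1 to 4. All 4 knockout libraries were above all 4 wild type libraries, with a gap between wild type 3 and knockout 1 that was smaller than the range within either label. On the log2 scale the rise was 0.22 (SE 0.058, edgeR adjusted p = 0.00529).

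Il2rb, the signalling chain that the IL-2 and IL-15 receptors share, rose by a similar amount. Its values were 751.4, 730.7, 751.1 and 727.7 CPM in wild type libraries 1 to 4 and 861.6, 805.1, 840.3 and 889.0 CPM in knockout libraries 1 to 4. The wild type libraries lay close together and the lowest knockout library, number 2, was above them. This was a log2 rise of 0.20 (SE 0.056, edgeR adjusted p = 0.00911).

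Il15ra, which presents IL-15 to cells that carry Il2rb and Il2rg, fell where Il2rb and its neighbour Il2ra rose. It stood at 14.3, 13.7, 14.1 and 14.0 CPM in wild type libraries 1 to 4 and at 8.13, 9.92, 9.22 and 10.6 CPM in knockout libraries 1 to 4. The wild type libraries were nearly equal, and every knockout library was below them. The log2 fold change was -0.56 (SE 0.12, edgeR adjusted p = 0.00120), from 115 to 203 counts per library. Among markers of other cells, 12 of 12 for B cells, 3 of 9 for dendritic cells (5 tested) and 2 of 6 for NK cells (3 tested) also fell. Of all tested genes 14.6% fell. Among the dendritic cell markers 1 rose. The part of these other cells in the fall of Il15ra was not tested.

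Il4ra, the chain that binds IL-4 and serves the IL-13 receptor as well, gave the largest rise. It had 872.7, 828.3, 793.1 and 834.1 CPM in wild type libraries 1 to 4 and 1665.6, 1338.2, 1352.4 and 1540.04 CPM in knockout libraries 1 to 4. The lowest knockout library was well above the highest wild type library, and knockout 1 and 4 were above 2 and 3. The mean went from 832.1 ± 32.6 to 1474.1 ± 157.4 CPM (SD, n = 4 each). That is a log2 rise of 0.83 (SE 0.067, edgeR adjusted p = 3.48e-09), the 62nd smallest p of the 14428 genes tested. B cells also use Il4ra; their markers fell in the same libraries, and their part in this result was not tested.

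Il21r, the IL-21 chain and the neighbour of Il4ra, rose less. Its values were 415.6, 381.8, 424.7 and 383.4 CPM in wild type libraries 1 to 4 and 544.3, 470.3, 470.7 and 506.2 CPM in knockout libraries 1 to 4. The labels did not overlap. The rise was 0.31 on the log2 scale (SE 0.064, edgeR adjusted p = 0.000717).

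Il9r, the IL-9 chain, was close to the limit of detection. It had 20, 21, 16 and 27 counts in wild type libraries 1 to 4 and 42, 35, 34 and 53 counts in knockout libraries 1 to 4, which is 1.42, 2.31, 1.11 and 1.86 CPM against 2.97, 2.43, 2.61 and 3.44 CPM. The labels were apart, but wild type 2, the shallowest library, and knockout 2 were close. The log2 fold change was 0.80 (SE 0.27, edgeR adjusted p = 0.0275). The call ended without wild type 1 (adjusted p = 0.0661), wild type 3 (0.101), knockout 1 (0.0547) or knockout 4 (0.0900), and with knockout 2 and 3 as the only knockout libraries (0.218).

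Il7r, the IL-7 chain of naive and memory T cells, gave the largest fall. It had 282.9, 290.9, 285.7 and 311.2 CPM in wild type libraries 1 to 4 and 163.7, 204.7, 203.7 and 181.8 CPM in knockout libraries 1 to 4. Every knockout library was below every wild type library, and knockout 1 and 4 were the lowest. The mean went from 292.7 ± 12.8 to 188.5 ± 19.6 CPM (SD, n = 4 each), or -0.64 as log2 fold change (edgeR adjusted p = 4.59e-07, SE 0.071). B cell markers fell in the same libraries, and their part in this fall was not tested.

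Levels of different genes can be compared only per length, as CPM per kb of the deposited gene length. On that scale Il2ra led in every library, at 404.4 to 452.9 in wild type and 478.2 to 535.6 in knockout libraries, and lay among the 85 highest of the 14428 tested genes in each. Il2rb (169.7 to 175.3) and Il4ra (132.1 to 145.4) followed in the wild type libraries. Il21r (114.9 to 127.8) and Il2rg (114.1 to 118.7) came next and could not be ordered, because their ranges overlapped. Il7r was sixth at 60.7 to 66.7 CPM per kb. Il15ra, at 3.07 to 3.21, and Il9r, at 0.23 to 0.47, stood far below the rest.

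In the libraries labelled knockout the order by deposited length changed at 1 place. Il4ra, at 223.0 to 277.5 CPM per kb, stood above Il2rb, at 187.8 to 207.4, in all 4 libraries, while it stood below Il2rb in all 4 labelled wild type. Il21r (141.5 to 163.7) was then above Il2rg (117.9 to 132.0) without overlap. Il7r (35.1 to 43.9), Il15ra (1.83 to 2.39) and Il9r (0.49 to 0.69) kept the last 3 places. The middle of the order depends on the length used. With the longest coding transcript of GENCODE M21 as the length, a choice made after the data were seen, Il2rg averaged 166.9 CPM per kb in wild type libraries, Il21r 160.6 and Il4ra 158.3, and these 3 overlapped and could not be ordered. Il2ra stayed first, Il4ra still stood above Il2rb in the knockout libraries (280.5 against 202.4), and Il7r, Il15ra and Il9r stayed last. On that length Il21r in the knockout libraries (188.2 to 217.8) overlapped both Il2rb (192.0 to 212.0) and Il2rg (168.5 to 188.7).

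**Figure D2:**
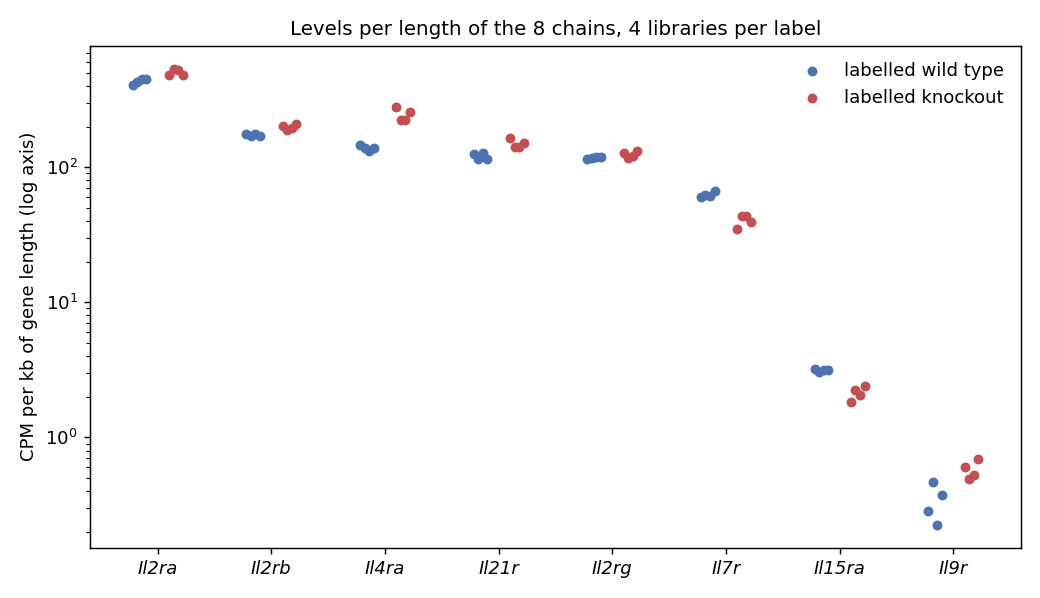
CPM per kb of deposited gene length (y axis, log scale) of the 8 receptor genes (x axis, ordered by the wild type mean), with 1 point for each of 4 libraries per label. Il2ra is highest, Il15ra and Il9r are far below the other 6, and Il4ra passes Il2rb in the libraries labelled knockout.

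Chains of one receptor were next read together, as ratios of their levels per kb within a library, which need no scaling between libraries. Of 10 ratios, 8 were apart between the labels by an exact two-sided permutation test at p = 0.0286, the smallest value that 70 assignments allow, with no adjustment for the 10. Most of the ratios share Il2rg and all reuse the members above, so they are not independent and partly restate the single genes. Of single tested genes 29.2% were apart. The share of other gene pairs that lie apart was not counted, so the 8 are a description. For the IL-4 receptor, Il4ra over Il2rg was 1.27, 1.19, 1.12 and 1.17 in wild type libraries 1 to 4 and 2.16, 1.89, 1.86 and 1.94 in knockout libraries 1 to 4. The knockout libraries thus had 1.65-fold more Il4ra for each unit of Il2rg. For the IL-7 receptor, Il7r over Il2rg was 0.53, 0.54, 0.52 and 0.56 in wild type and 0.27, 0.37, 0.36 and 0.295 in knockout libraries 1 to 4, a 1.66-fold fall. The change was larger with knockout 1 and 4 than with 2 and 3 (log2 differences of -0.92 and -0.55).

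Of the IL-2 receptor's 3 ratios, the 2 with Il2ra did not pass. Il2ra over Il2rb was 2.31, 2.49, 2.59 and 2.65 in wild type and 2.38, 2.85, 2.67 and 2.32 in knockout libraries 1 to 4. The labels overlapped, with a log2 difference of 0.025 (SE 0.083, exact permutation p = 0.771), which went below 0 without wild type 1 or knockout 2 (-0.030 to 0.070 with a library left out). Il2ra over Il2rg averaged 3.70 ± 0.13 and 4.06 ± 0.44 (SD, n = 4 each) and did not pass either (exact permutation p = 0.286), and its log2 difference of 0.13 turned to -0.0068 with knockout 1 and 4 alone. Il2rb over Il2rg rose by 0.10 on the log2 scale, a small step that was still apart between labels (1.43 to 1.54 against 1.57 to 1.62).

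The IL-15 receptor shifted in its alpha chain: Il15ra over Il2rb fell 1.70-fold, from a mean of 0.0182 ± 0.00022 to 0.0108 ± 0.0012 (SD, n = 4 each). Il21r over Il2rg rose from 1.03 ± 0.063 to 1.20 ± 0.055, and Il9r over Il2rg from 0.0029 ± 0.00091 to 0.0046 ± 0.00048 (SD, n = 4 each). The widest shift was in the ratio of Il7r to Il2ra, and the activation state of the cells was not measured. Il7r over Il2ra was 0.150, 0.147, 0.135 and 0.149 in wild type and 0.073, 0.082, 0.083 and 0.081 in knockout libraries 1 to 4, a 1.82-fold fall. As a description with no test, the private signalling chains Il2rb, Il4ra, Il7r, Il9r and Il21r summed to 4.14 to 4.44 times the level of Il2rg in wild type libraries and to 4.97 to 5.29 times in knockout libraries. That sum was chosen after the values were seen and its size depends on the gene lengths.

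**Figure D3:**
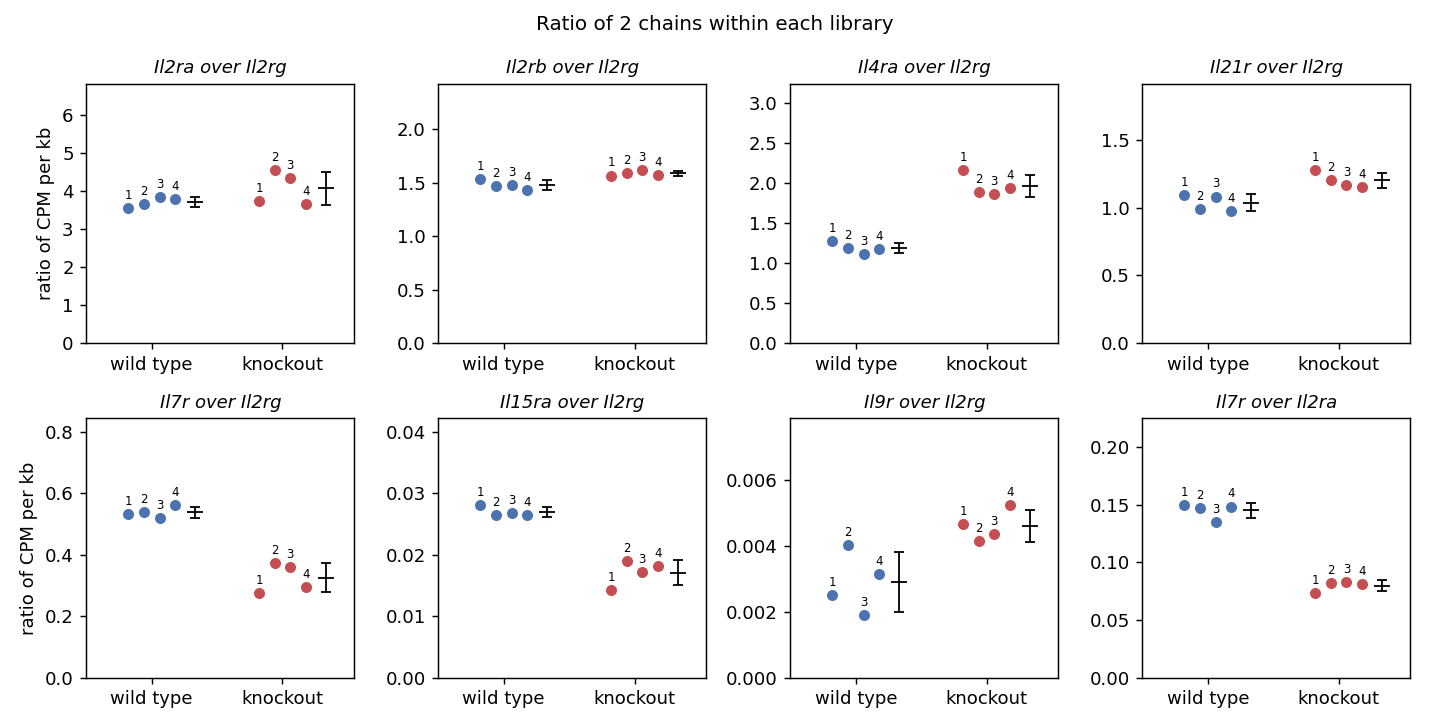
Ratio of the levels per kb of 2 chains for 8 of the 10 ratios (y axis, from 0, a scale for each pair) in the 4 libraries labelled wild type and the 4 labelled knockout (x axis). Points are libraries with their replicate number, and bars give the mean with SD. Il4ra over Il2rg is at 1.86 or more in every knockout library, Il7r over Il2ra is lower in all of them, and Il2ra over Il2rg overlaps between labels.

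As shares of the summed level per kb of the 8 chains, Il4ra took 13.2% ± 0.75 in wild type and 19.4% ± 1.82 in knockout libraries, and Il7r 5.99% ± 0.24 and 3.20% ± 0.37 (SD, n = 4 each). Il2ra held the largest share under either label, 41.3% ± 1.40 and 39.9% ± 2.80. Shares sum to a fixed total, so a rise of one chain lowers the others.

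The libraries labelled knockout fell into 2 pairs for most members. Knockout 1 and 4 lay above knockout 2 and 3 for 5 members (Il2rb, Il2rg, Il4ra, Il9r and Il21r), below them for Il2ra and Il7r, and among them for Il15ra. A principal component of the within-label deviations of all tested genes, with 24.6% of their variance, puts the same pairs on opposite sides. The share of all tested genes that split in this way was not counted, so the split is not read as a trait of the members. Cyp1b1 was lower in knockout 1 and 4 (154.1 and 134.1 CPM) than in 2 and 3 (219.7 and 231.1 CPM). The spread of Il4ra was 10.7% of its mean in knockout and 3.92% in wild type libraries, and that of Il15ra 11.2% and 1.83%. Either pair alone against the 4 wild type libraries gave the same direction for all 8 members. For the 7 whose labels did not overlap, any choice of knockout libraries gives that direction, so this is no check of it. Over all the alternatives tried, log2 fold changes ran from 0.70 to 0.96 for Il4ra and from -0.75 to -0.51 for Il7r.

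Genes around the receptors were read in 5 lists. Of 47 genes for ligands, kinases, inhibitors and linked functions, 42 were tested, 10 rose, 5 fell and 27 did not pass, with a median log2 fold change of 0.039. That makes 15 of 42 called, against the 30.4% of all tested genes given above. The count of falls is unsteady: it was 1 without wild type 2 and 3 without wild type 1, wild type 3, knockout 1, knockout 3 or knockout 4. Library totals as scaling gave 11 falls, and protein-coding genes alone 8.

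Among 11 ligands and partner chains, 6 were tested, 2 rose and none fell. Il4, whose product binds Il4ra, rose from 2.98, 4.296, 2.65 and 4.33 CPM in wild type to 6.93, 7.905, 5.53 and 8.36 CPM in knockout libraries 1 to 4, which is 1.03 on the log2 scale (edgeR adjusted p = 0.00035, SE 0.197). Il13, whose product also signals through Il4ra, rose from a mean of 1.37 ± 0.90 to 3.58 ± 0.31 CPM (SD, n = 4 each), or 1.33 (SE 0.32, adjusted p = 0.00273). Il4ra and these ligands were thus higher in the same libraries, at low levels of ligand RNA. The partner chain Il13ra1 and the ligand Il2, named outside the rule after their values were seen, were not called, with Il13ra1 at 1.94 and 1.84 CPM on average. Il21 stood at 166.0 ± 25.8 and 188.3 ± 35.2 CPM and was not called (0.18, adjusted p = 0.407), but was with no low-count filter (0.22, adjusted p = 0.0339). Crlf2, the partner of Il7r for TSLP, stood at 47.3 ± 7.84 and 55.8 ± 3.12 CPM and was not called (0.24, adjusted p = 0.0649). It passed without wild type 1, wild type 3 or knockout 2 (adjusted p from 0.0213 to 0.0488). Crlf2 also passed with no low-count filter (edgeR adjusted p = 0.0124), with the replicate number as a block (0.0172) and with knockout 1 and 4 alone (0.0490). Il2 averaged 2.07 and 2.06 CPM. Il7 had no counts, and Il9, Il15, Tslp and Il13ra2 were too low to test.

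Of 7 kinase and STAT genes, 1 rose, 1 fell and 5 did not pass (median 0.057). Stat3, the factor downstream of IL-21 and IL-6, rose from 401.3 ± 20.1 to 465.0 ± 13.3 CPM (SD, n = 4 each), or 0.21 as log2 fold change (edgeR adjusted p = 0.0084, SE 0.059), with adjusted p = 0.0517 without wild type 4. Jak3, the kinase on the shared chain, fell by 0.20 on the log2 scale (SE 0.064, adjusted p = 0.0236). Its labels overlapped, and leaving out wild type 1, 2 or 3 or knockout 2 or 3 ended the call. Jak1 (0.013, adjusted p = 0.889) and Stat5b (0.057, adjusted p = 0.492) did not pass, and Jak1 turned to -0.037 with library totals.

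Of 7 feedback inhibitors, 3 rose, none fell and 4 did not pass (median -0.14). Cish, a STAT5 target that restrains cytokine and T cell receptor signals, had 430.9, 434.7, 427.6 and 424.5 CPM in wild type and 531.3, 524.6, 554.3 and 549.5 CPM in knockout libraries 1 to 4. The labels were widely apart, by 0.33 on the log2 scale (edgeR adjusted p = 8.66e-05, SE 0.056). Socs2, another STAT5 target, rose from 116.7 ± 24.2 to 161.5 ± 17.5 CPM (SD, n = 4 each; 0.47, adjusted p = 0.0131), though wild type 4 lay above knockout 3. Its call ended without knockout 2 (adjusted p = 0.0623), with knockout 1 and 4 alone (0.128) and with knockout 2 and 3 alone (0.235). The phosphatase gene Ptpn6 rose by 0.19 (adjusted p = 0.0304), a call that ended without wild type 1, 2 or 4 or knockout 1 or 4. Socs3 (-0.14, adjusted p = 0.0849) and Socs1 (-0.14, adjusted p = 0.149) did not pass, but both passed as lower with library totals (0.0183 and 0.0464), under which Ptpn6 lost its call (0.108).

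Of 13 STAT5-linked genes of survival, growth and effector function, 3 rose, 4 fell and 6 did not pass (median -0.12). Bcl2l1, which encodes the survival protein BCL-XL, fell from 151.5, 127.2, 136.1 and 126.3 CPM in wild type to 92.0, 90.5, 95.4 and 95.7 CPM in knockout libraries 1 to 4, which is -0.54 on the log2 scale (edgeR adjusted p = 3.64e-06, SE 0.070). Ccnd3, a cyclin of the G1 phase, rose from 289.1 ± 10.9 to 367.8 ± 24.4 CPM (SD, n = 4 each; 0.35, adjusted p = 0.000195). The other 4 calls named by the rule each ended when single libraries were left out. Myc rose by 0.19 (adjusted p = 0.0215), and Bcl6, Pim1 and Pim2 gave -0.38, -0.16 and -0.17 (adjusted p = 0.0289, 0.0336 and 0.0318). With a library left out their directions held. The log2 fold changes then ran from 0.16 to 0.21 for Myc, from -0.48 to -0.30 for Bcl6, and from -0.19 to -0.14 for both Pim1 and Pim2. Calls over all genes in those fits ran from 3559 to 4679, so a lost call does not mean that 1 library carried the change. Library totals ended the call of Myc too (adjusted p = 0.0866), and with no low-count filter Bcl6 (0.0675), Pim1 (0.243), Pim2 (0.226) and Jak3 (0.101) were not called. Leaving out wild type 2, wild type 4 or knockout 1 ended the call of Myc, and leaving out wild type 2 or 4 or knockout 1 or 4 ended that of Bcl6. For Pim1 it was wild type 2, 3 or 4 or knockout 2, 3 or 4, and for Pim2 wild type 1, 2 or 4 or knockout 1 or 2. Ccnd2 (-0.12, adjusted p = 0.105) and Mcl1 (-0.077, adjusted p = 0.344) did not pass. Bcl2, named outside the rule after its values were seen, was called as higher. It went from 430.8 ± 17.1 to 489.5 ± 42.7 CPM (SD, n = 4 each), and its labels overlapped. On the log2 scale the rise was 0.18 (edgeR adjusted p = 0.0357), a call not followed with libraries left out.

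Beside the fall of Il7r, of 9 known regulators of it and genes that share them, 1 rose, none fell and 8 did not pass (median 0.10). The one that rose was Ccr7, a lymph node homing receptor, from 542.5 ± 14.9 to 667.1 ± 23.0 CPM (SD, n = 4 each; log2 fold change 0.30, SE 0.056, edgeR adjusted p = 0.000298). Ets1, a transcription factor, did not pass (0.079, adjusted p = 0.282). Foxo1, which drives Il7r in naive T cells and is named outside the rule after its values were seen, averaged 167.8 ± 11.7 and 180.2 ± 6.35 CPM (SD, n = 4 each) without a call (0.10, adjusted p = 0.239).

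**Figure D4:**
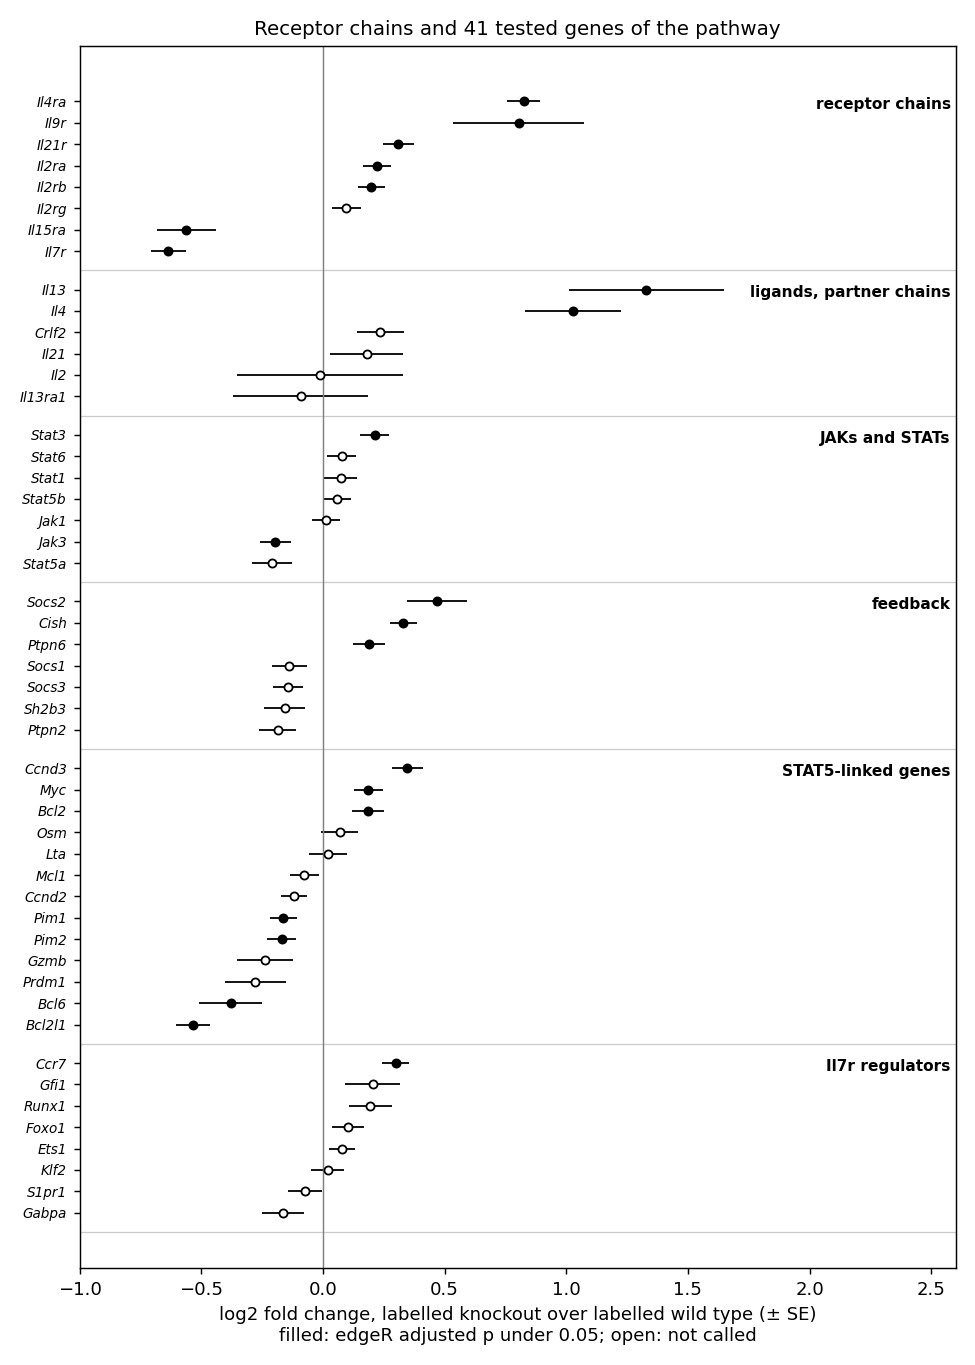
Log2 fold change of the libraries labelled knockout over those labelled wild type (x axis, with SE) for the 8 receptor genes and 41 of the 42 tested genes of the 5 pathway lists (y axis, grouped by list), 4 libraries per label. Filled points passed an edgeR adjusted p of 0.05. Il4ra, Il4 and Il13 lie to the right, and Il7r, Il15ra and Bcl2l1 to the left.

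The genes whose pattern over the 8 libraries came closest to 3 of the members were ranked by the root mean square difference of centred log2 CPM, among 9321 genes that averaged 10 CPM or more. Nearest to Il2ra were Hnrnpd (0.026), Dtl (0.034) and Arid2 (0.036), with log2 fold changes of 0.24, 0.25 and 0.24. Nearest to Il7r were Zfp944 (0.059), Ttc39b (0.064) and Acadl (0.067), which fell by 0.66, 0.72 and 0.58 on the log2 scale. Nearest to Il2rg were Sdhd (0.021), Cdk16 (0.029) and Tbc1d20 (0.030), none of which passed (adjusted p = 0.414, 0.19 and 0.168). These are the closest of many genes over few libraries and are given as a description.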

How the data were processed

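RNA was sequenced from cultured mouse CD4 T cells, 4 WT and 4 CYP1B1 knockout libraries by label. No strand-marking step is named, and random hexamers primed polyadenylated RNA, per the labels' protocols. The authors deposited raw counts per gene, whole numbers with no normalization, with gene length in bases. Fastp was used per the submitters' processing notes. Aligner, counter, annotation and build were not given in the sources used here. Of 54532 identifiers, 54409 were in GENCODE M21 (GRCm38), 53499 with the same start and end.

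Genes were kept by filterByExpr (minimum count 10, minimum total 15), scaled by TMM and tested with edgeR 4.0.16 (R 4.3.3), a robust quasi-likelihood F-test on genotype alone, two-sided, Benjamini-Hochberg adjusted over 14428 genes. Each SE was taken as log2 fold change divided by root F. Variation between libraries of a label (edgeR's common BCV) was 0.0895, and it may be technical only. CPM are TMM-scaled, and marker sums use library totals. No molecular identifiers are named in the labels. Within a label, every pair of replicates differed beyond sampling noise (chi-square per gene 3.69 to 12.3). The steps were tested on simulated data.

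Alternatives were DESeq2 1.42.0, limma-voom (limma 3.58.1), other scaling and filters, protein-coding genes, a replicate block, each library left out, and knockout pairs 1 and 4 or 2 and 3. The labels do not name these pairs, which follow how the libraries lay in these same data. Members and lists were chosen with earlier results of these data known. Named genes are Cyp1b1, the members, up to 6 called (smallest p) and 2 uncalled (highest CPM) genes of each pathway list, and the 3 nearest patterns of 3 members. The counts include 1 listed gene whose own values are not reported here.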

Additional observations from a re-analysis of the deposited data

How the results depend on the processing

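The calls of Il2ra, Il2rb, Il4ra, Il7r, Il15ra and Il21r kept their direction and stayed under an adjusted p of 0.05 in all 18 alternatives, with the highest adjusted p at 0.0446 for Il2rb and 0.0418 for Il2ra, both close to the threshold. Il9r lost its call in 5 and Il2rg gained one in 1, as given above. Il9r, Jak3, Stat3, Socs2 and Ptpn6 kept their direction in the fits where leaving out a library ended their call. Calls over all genes ran from 3428 to 5062. With the replicate block, 4936 genes and 8 falls in the pathway lists were called. Same-numbered libraries correlated at 0.051 to 0.10, and 5 of 8 libraries correlated best with their own number. These values do not settle whether the numbers are pairs. The labels name no pairs, so the main fit did not use the numbers. Falls in the pathway lists were 11 with library totals, 8 with protein-coding genes alone, 2 with no low-count filter and 1 to 4 with a library left out. With knockout 1 and 4 alone the log2 difference of Il2ra over Il2rg was -0.0068, of Il7r over Il2rg -0.92 and of Il2ra over Il2rb -0.092. With knockout 2 and 3 alone the first 2 were 0.26 and -0.55. With a library left out Il2ra over Il2rb ran from -0.030 to 0.070. Genes not called changed sign at values near 0: Jak1 at -0.037 with library totals, at -0.0021 with protein-coding genes alone and from -0.017 to 0.025 with a library left out, Il21 at -0.041 with knockout 1 and 4 alone, and Mcl1 at 0.0036 and Sdhd at -0.00055 with knockout 2 and 3 alone. The cause of these changes was not tested. Depth limits Il9r, whose libraries held 16 to 53 counts.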
